A study of Mus musculus with 10 samples.

Results

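The genes of transforming growth factor beta (TGF-beta) signalling described here are the ligand *Tgfb1*, the receptors *Tgfbr1* and *Tgfbr2*, the signal transducers *Smad2*, *Smad3* and *Smad4*, and the inhibitors *Smad7*, *Ski* and *Skil*. They were taken by symbol from the single cell tables of all 10 libraries, and these 9 genes are 9 of the 18292 gene symbols measured. Microglia, the resident macrophages of the brain, were sorted as CD11b high and CD45 intermediate cells from C57BL/6 mice and sequenced with the 10x Genomics 3' kit. The 5 groups of 2 libraries each were microglia taken directly from adult brain, microglia from organotypic brain slices kept in culture (1 day, 1 week or 3 weeks), and microglia grown *in vitro* in mixed glial cultures for 3 weeks. The labels name no transgene or treatment, but the study's methods add human PDGF to the slice medium at every change and name none for the mixed glial cultures, so slice culture and this factor cannot be told apart. The slices were cut from neonatal pups and pooled as needed, and the *in vitro* cells came from neonatal cortex and were collected from the medium, so culture and the age of the donor animal cannot be told apart in the comparisons with adult cells. The labels do not say whether the libraries of a group came from separate animals or cultures, so the p-values measure the spread between these libraries, which may be technical.

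TGF-beta is made as a latent protein that is bound to other proteins and must be released before it can act. The released ligand binds TGFBR2, which recruits and phosphorylates TGFBR1, and TGFBR1 then phosphorylates SMAD2 and SMAD3. These form complexes with SMAD4 that enter the nucleus and regulate transcription, while SMAD7 acts at the receptor as feedback inhibitor and SKI and SKIL (also called SnoN) repress transcription at the SMAD complexes. In the mouse brain, TGF-beta signalling is required for the adult gene expression of microglia, and recombinant TGF-beta is commonly added to microglial cultures for that reason.

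On the mm10 build (GRCm38, GENCODE vM21), *Tgfb1* lies at chr7:25687002-25705077, *Tgfbr1* at chr4:47353222-47414931, *Tgfbr2* at chr9:116084293-116175360, *Smad3* at chr9:63646767-63757994, *Ski* at chr4:155154075-155222592 and *Skil* at chr3:31095058-31122577. None of these 6 genes overlaps another annotated gene.

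The promoters of both receptor genes are shown because their products work in 1 complex while their transcripts differed in their levels across the groups. The windows hold 250 bases before and 50 bases after an annotated start (RefSeq, GRCm38.p6), chr4:47352972-47353271 on the plus strand for *Tgfbr1* and chr9:116175314-116175613 on the minus strand for *Tgfbr2*. Capitals mark matches on either strand to CAGAC, a SMAD-binding element, and to GAGGAA, a core of ETS family sites such as those of the macrophage factor PU.1.
Tgfbr1: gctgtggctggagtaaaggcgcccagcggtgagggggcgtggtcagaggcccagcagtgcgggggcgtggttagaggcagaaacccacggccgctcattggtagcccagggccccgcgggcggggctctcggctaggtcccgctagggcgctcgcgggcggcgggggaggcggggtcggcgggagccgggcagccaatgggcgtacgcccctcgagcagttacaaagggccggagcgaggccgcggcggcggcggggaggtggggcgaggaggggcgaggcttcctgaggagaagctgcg
Tgfbr2: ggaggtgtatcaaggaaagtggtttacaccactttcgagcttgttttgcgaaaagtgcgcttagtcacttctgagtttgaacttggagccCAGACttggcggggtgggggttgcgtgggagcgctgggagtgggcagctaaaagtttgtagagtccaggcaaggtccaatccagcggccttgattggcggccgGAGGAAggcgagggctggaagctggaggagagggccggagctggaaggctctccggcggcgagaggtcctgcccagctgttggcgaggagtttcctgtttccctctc
The *Tgfbr2* window held 1 match to each motif, and this *Tgfbr1* window held none, although the window at a second annotated *Tgfbr1* start, not shown, held 1 of each. CAGAC occurred in 49.6% and GAGGAA in 28.3% of all 32851 windows of 300 bases in the table. GC content was 74.7% in the *Tgfbr1* window and 59.0% in the *Tgfbr2* window. Windows of 5 of the 9 genes were searched.

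Cells were kept with at most 5% mitochondrial UMIs, at least 400 genes and at most 30000 UMIs, so that 19059 of 19637 cell barcodes remained, from 61 to 3799 per library. No doublet caller was run, and the upper limit on UMIs was the sole step that could remove doublets. A UMI (unique molecular identifier) stands for 1 captured transcript. Total UMIs per library ran from 385373 to 39689540, and median UMIs per cell were 1858 and 3257 in the adult libraries, 5266 to 8335 in the slice libraries, and 12858 and 13966 *in vitro*. No more than 21 barcode sequences were shared by any pair of libraries. All 7 microglial markers checked (among them *P2ry12*, *Tmem119*, *Cx3cr1* and *Csf1r*) had UMIs in every library. Their sum was 18288 and 19235 CPM (UMIs per 1000000 UMIs) in adult, 2354 and 2003 at 1 day, and 3740 and 4432 at 1 week. It was 5350 and 4197 at 3 weeks, and 2558 and 1929 *in vitro*. Neutrophil markers (8 genes, among them *S100a8* and *S100a9*) summed to 7658 and 22419 CPM in the slice 1 day libraries and to 40236 and 955 in the slice 1 week libraries. In any other library they summed to at most 8.31. Monocyte markers (5 genes, among them *Ccr2* and *Ly6c2*) summed to 154 and 363 CPM in the slice 1 day libraries, to 850 and 0 in the slice 1 week libraries and to at most 7.10 in any other. Cells past a limit of 3 UMIs and 2 genes of the monocyte list numbered 36 and 127 at 1 day, 22 and 0 at 1 week, and 0 elsewhere. For the neutrophil list they numbered 343 and 1014 at 1 day and 148 and 2 at 1 week. These were all cells of slice 1 day replicate 2 and slice 1 week replicate 1. In these libraries, cells with at most 2% of their UMIs from that list still held a median of 0.436% and 0.566%. Markers of border macrophages (6 genes, among them *Mrc1* and *Pf4*) summed to 8.09 and 13.1 CPM in adult, 111 to 452 in slices, and 4470 and 4295 *in vitro*. Most of the *in vitro* sum was *Ms4a7* (2238 and 2190), *Pf4* (1873 and 1788) and *Mrc1* (351 and 306). *Cbr2* was at 7.39 and 8.52 there, *Cd163* at 0.736 and 1.11, and *Lyve1* at 0.648 and 0.277. The 6 proliferation markers summed to 20.7 and 25.9 in adult and to 140 to 344 in the cultured libraries. Adult replicate 1 and slice 3 weeks replicate 1 carry another study identifier than the other 8 libraries.

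Levels are the UMI totals of a library's cells, as CPM on TMM-scaled library sizes. Genes were called where edgeR's quasi-likelihood test gave a Benjamini-Hochberg adjusted p below 0.05 over all 12157 genes tested and a fold change above 1.5, the thresholds of the study. All 9 genes passed the filter on low counts. Since the libraries are sums over sorted cells, fewer expressing cells and less RNA per cell cannot be told apart in these sums.

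*Tgfbr1*, the type I receptor, had the largest estimated fall of the 9 genes in each of the 4 comparisons with adult microglia, although *in vitro* its estimate lay within the errors of that of *Smad7*. It was at 637 and 666 CPM in the adult libraries, at 87.8 and 58.9 after 1 day in slices, at 128 and 120 after 1 week, at 147 and 168 after 3 weeks, and at 47.8 and 45.5 *in vitro*. No culture library reached the adult level, and the order from high to low was adult, slice 3 weeks, slice 1 week, slice 1 day and *in vitro*, with no overlap between neighbours. *Tgfbr1* was lower *in vitro* by a log2 fold change of -3.80 ± 0.20 (SE; edgeR adjusted p = 2.21e-07) and at 1 day by -3.16 ± 0.20 (edgeR adjusted p = 1.67e-06). The difference was -2.38 ± 0.20 at 1 week and -2.05 ± 0.19 at 3 weeks (edgeR adjusted p = 2.61e-05 and 2.81e-05).

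*Tgfbr2*, the type II receptor that binds the ligand, was below adult by a call at 1 day alone. Its level was 113 and 79.2 CPM in adult, 28.8 and 34.7 at 1 day, 101 and 118 at 1 week, 78.3 and 84.5 at 3 weeks, and 73.8 and 71.1 *in vitro*. The slice 1 day libraries were the lowest and the *in vitro* libraries lay just below those of 3 weeks, slice 1 week lay above slice 3 weeks in both libraries, and the adult libraries overlapped both of these groups. *Tgfbr2* fell at 1 day by 1.59 ± 0.19 on the log2 scale (edgeR adjusted p = 6.47e-05). It was not called at 1 week (log2 fold change 0.16 ± 0.20), at 3 weeks (-0.24 ± 0.18) or *in vitro* (-0.41 ± 0.18, edgeR adjusted p = 0.0676). The *in vitro* difference was called on library size alone (-0.72) and without adult replicate 2 (-0.65).

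**Figure D1:**
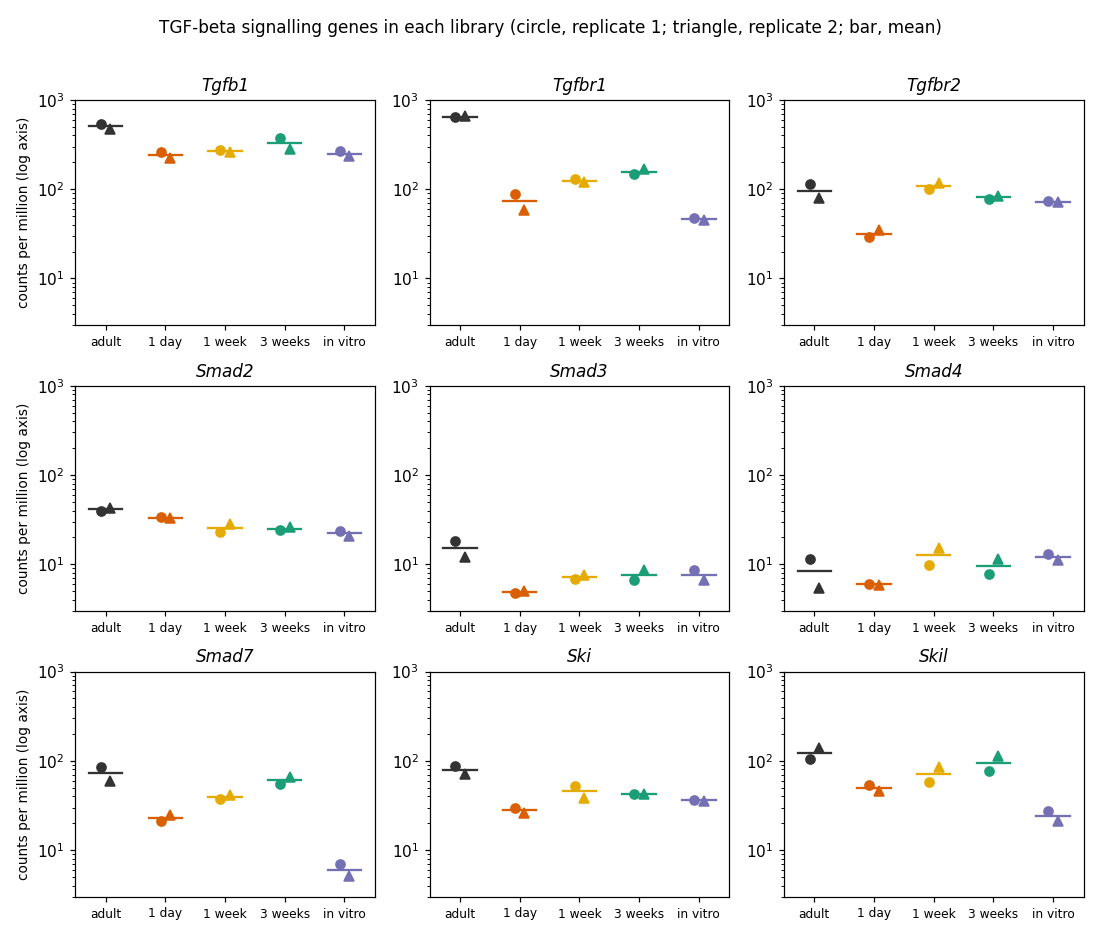
Level of each of the 9 genes in each library, in CPM on TMM-scaled library sizes (log axis), for the 5 groups, with circles for replicate 1, triangles for replicate 2 and bars for the mean. *Tgfbr1* is highest in both adult libraries (637 and 666), and *Smad7* is lowest *in vitro* (6.90 and 5.11).

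The ligand gene *Tgfb1* was also lower in every culture library than in adult. It stood at 540 and 478 CPM in adult, 264 and 223 at 1 day, 275 and 261 at 1 week, 370 and 286 at 3 weeks, and 265 and 234 *in vitro*. The adult libraries lay above all others, whereas the 4 culture groups were not separated beyond their spread from their neighbours in the order. The log2 fold change was -1.06 ± 0.17 at 1 day, -0.92 ± 0.18 at 1 week, -0.64 ± 0.17 at 3 weeks and -1.03 ± 0.17 *in vitro*, each called by edgeR with an adjusted p between 0.000448 and 0.0127. The call at 3 weeks was lost without adult replicate 1 (log2 fold change, lowest and highest over the alternatives on scaled libraries, -0.83 and -0.40), without slice 1 day replicate 2, without slice 3 weeks replicate 2 or without neutrophil and monocyte cells. It was also lost with all barcodes, without the filter on low counts and with only the 2 groups in the fit.

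Of the receptor-activated SMADs, *Smad2* was at 39.9 and 42.6 CPM in adult and *Smad3* at 18.0 and 12.1. *Smad2* was at 33.6 and 32.9 at 1 day, 22.7 and 28.1 at 1 week, 24.3 and 26.0 at 3 weeks, and 23.9 and 20.9 *in vitro*. *Smad3* was at 4.72 and 5.05 at 1 day, 6.92 and 7.68 at 1 week, 6.60 and 8.62 at 3 weeks, and 8.67 and 6.68 *in vitro*. Both genes were highest in adult, but *Smad2* was lowest *in vitro* and *Smad3* at 1 day. *Smad2* fell by 0.88 ± 0.14 *in vitro*, 0.71 ± 0.14 at 3 weeks and 0.75 ± 0.20 at 1 week on the log2 scale and was not called at 1 day (-0.31 ± 0.14, edgeR adjusted p = 0.0859). The *Smad2* call at 1 week was lost without adult replicate 2 or slice 1 week replicate 1. *Smad3* fell by 1.62 ± 0.28 at 1 day, 0.98 ± 0.26 at 3 weeks and 0.99 ± 0.25 *in vitro* and was not called at 1 week (-1.09 ± 0.43, edgeR adjusted p = 0.0835), where it rested on 7 and 3 UMIs. On library size alone it was called as lower at 1 week (-1.31). The *Smad3* calls at 3 weeks and *in vitro* were lost without adult replicate 1, and that *in vitro* also without *in vitro* replicate 2.

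*Smad4*, the common partner of the activated SMADs, was not called in any comparison in the fit of all 10 libraries described above. It was at 11.5 and 5.41 CPM in adult, 6.03 and 5.87 at 1 day, 9.88 and 15.4 at 1 week, 7.76 and 11.4 at 3 weeks, and 13.2 and 11.3 *in vitro*. The ranges of all neighbours in the order of the group means overlapped. The log2 fold change against adult was -0.55 ± 0.36 at 1 day and 0.50 ± 0.32 *in vitro* (edgeR adjusted p = 0.221 and 0.205). Without adult replicate 1 it was called as higher *in vitro* (1.27), and without adult replicate 2 as lower at 1 day (-0.95). On UMIs per cell *Smad4* was called as higher *in vitro* (2.58), at 1 week (1.56), at 3 weeks (1.14) and *in vitro* against slice 3 weeks (1.44).

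The inhibitors *Smad7* and *Skil* separated the 3-week slices from the *in vitro* cultures. *Smad7* was at 86.1 and 59.4 CPM in adult, 21.2 and 24.8 at 1 day, 37.6 and 40.9 at 1 week, 55.1 and 65.9 at 3 weeks, and 6.90 and 5.11 *in vitro*. The 3-week libraries overlapped the adult ones, and the other groups stepped down to the *in vitro* cultures without overlap. *Smad7* fell by 3.60 ± 0.22 *in vitro* on the log2 scale (edgeR adjusted p = 5.84e-07), by 1.65 ± 0.21 at 1 day and by 0.91 ± 0.27 at 1 week, and was not called at 3 weeks (-0.27 ± 0.20). The call at 1 week was lost without adult replicate 1 or either slice 1 week replicate.

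*Skil* was at 105 and 138 CPM in adult, 53.2 and 45.9 at 1 day, 57.3 and 84.4 at 1 week, 76.8 and 114 at 3 weeks, and 27.2 and 21.4 *in vitro*. Only the *in vitro* libraries lay beyond the spread of their neighbour in the order, the slice 1 day group. *Skil* fell by 2.32 ± 0.24 *in vitro* (edgeR adjusted p = 1.82e-05), by 1.30 ± 0.24 at 1 day and by 0.84 ± 0.27 at 1 week, and was not called at 3 weeks (-0.35 ± 0.23). The call at 1 week was lost without adult replicate 2, slice 1 day replicate 2 or slice 1 week replicate 1.

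*Ski*, the homologue of *Skil*, fell in all 4 comparisons with adult. It was at 87.8 and 70.3 CPM in adult, 29.6 and 26.2 at 1 day, 52.4 and 38.4 at 1 week, 42.8 and 42.5 at 3 weeks, and 36.9 and 35.8 *in vitro*. The adult libraries stood above all others and the slice 1 day libraries below. The log2 fold change was -1.51 ± 0.16 at 1 day, -0.74 ± 0.19 at 1 week, -0.89 ± 0.15 at 3 weeks and -1.12 ± 0.15 *in vitro*, with an edgeR adjusted p between 3.2e-05 and 0.0144. The call at 1 week was lost without adult replicate 1 or slice 1 week replicate 2.

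**Figure D2:**
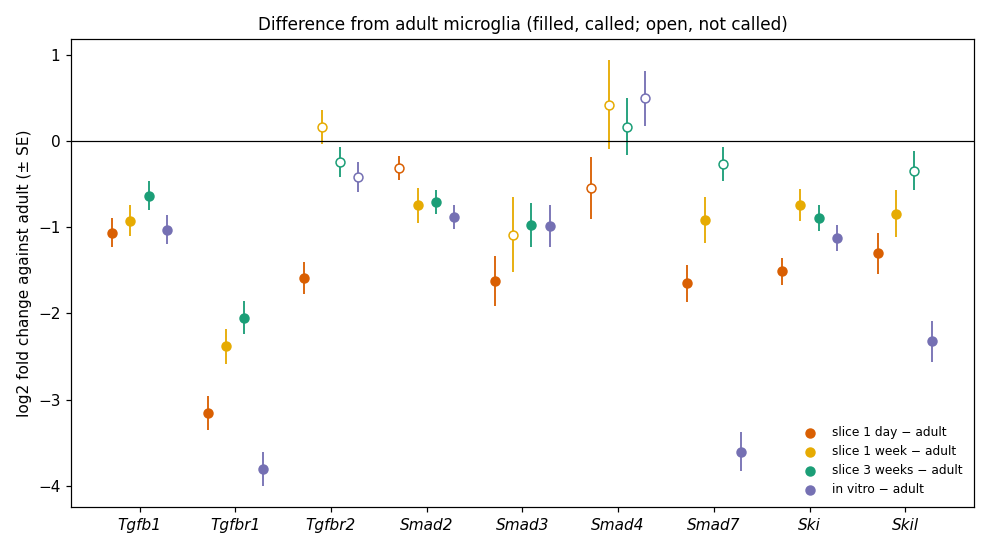
Log2 fold change (± SE) of each gene against adult for the 3 slice times and the *in vitro* cultures, with filled points for genes called by edgeR and open points for the others. *Tgfbr1* lies between -2.05 and -3.80, and *Smad7* and *Skil* are open at 3 weeks and filled *in vitro* (-3.60 and -2.32).

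Counted over the 9 genes, 7 were called as lower and 0 as higher *in vitro* than in adult, where 28.5% of all genes tested were called as lower and 22.4% as higher. At 1 day in slices 7 were lower and 0 higher, against 25.3% and 24.9% of all genes. At 1 week 6 were lower and 0 higher, against 13.6% and 15.0%, and at 3 weeks 5 were lower and 0 higher, against 17.5% and 17.9%. The middle value of the 9 log2 fold changes (their median) was -1.51 for 1 day, -0.84 for 1 week, -0.64 for 3 weeks and -1.03 *in vitro*, beside -0.06, -0.08, -0.03 and -0.11 for all genes tested. These comparisons share the adult libraries and are not independent of each other.

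The culture groups were then compared with each other. Against slice 3 weeks, *Tgfbr1*, *Smad7* and *Skil* were lower *in vitro*, by -1.76 ± 0.19, -3.34 ± 0.22 and -1.98 ± 0.23 on the log2 scale (edgeR adjusted p = 6.45e-05, 3.12e-06 and 0.000141). On UMIs per cell *Tgfbr1* was not called (-0.68), while *Smad7* (-2.25) and *Skil* (-0.88) were still lower. These 3 were called as lower and 0 as higher on scaled libraries, against 19.9% and 13.3% of all genes tested. From 1 day to 3 weeks in slices, 5 of the 9 genes were called as higher and 0 as lower, against 13.9% and 12.8% of all genes. These were *Tgfbr1* (1.11 ± 0.18), *Tgfbr2* (1.35 ± 0.19), *Smad7* (1.38 ± 0.21), *Ski* (0.62 ± 0.16) and *Skil* (0.96 ± 0.23). The calls of *Ski* and *Skil* were lost without slice 1 day replicate 2, and that of *Skil* also without slice 3 weeks replicate 2. That of *Ski* was also lost on library size alone, with cells thinned to 1800 UMIs and with only the 2 groups in the fit. On UMIs per cell 0 of the 9 genes were called between these slice times, beside 2.70% higher and 17.0% lower of all genes.

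The values above describe a gene's part of all UMIs. When UMIs per cell were fitted without scaling for depth, the median gene shifted upwards against adult by 2.04 on the log2 scale *in vitro*, 1.49 at 1 day, 1.10 at 1 week and 1.05 at 3 weeks. On that scale *Tgfbr1* was still called as lower in all 4 comparisons, with 2.29 and 1.47 UMIs per cell in adult, 0.647 and 0.564 at 1 day, 0.878 and 0.770 at 1 week, 0.987 and 0.962 at 3 weeks, and 0.616 and 0.604 *in vitro*. *Smad7* was also still lower *in vitro* (0.0890 and 0.0679 UMIs per cell, beside 0.310 and 0.131 in adult). The direction turned *in vitro* for *Tgfb1* (1.12), *Tgfbr2* (1.70), *Smad2* (1.30), *Smad3* (1.13) and *Ski* (1.01), which were then called as higher, and *Skil* was not called (-0.11). Relative to the shift of the median gene, these 5 genes and *Skil* were lower by -0.91, -0.33, -0.73, -0.91, -1.02 and -2.14. *Tgfb1*, *Smad2*, *Smad4* and *Skil* were on the higher side of adult at all 3 slice times on that scale. Counted on that scale, 6 of the 9 genes were called as above adult and 2 as below *in vitro*, where 80.3% and 4.70% of all genes were. In slices the counts were 1 above and 1 below for 1 day (67.9% and 3.49% of all genes), 2 and 1 for 1 week (44.0% and 1.35%) and 3 and 1 for 3 weeks (55.9% and 2.76%). *In vitro* against slice 3 weeks, 5 were above and 2 below, beside 52.7% and 5.54% of all genes.

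**Figure D3:**
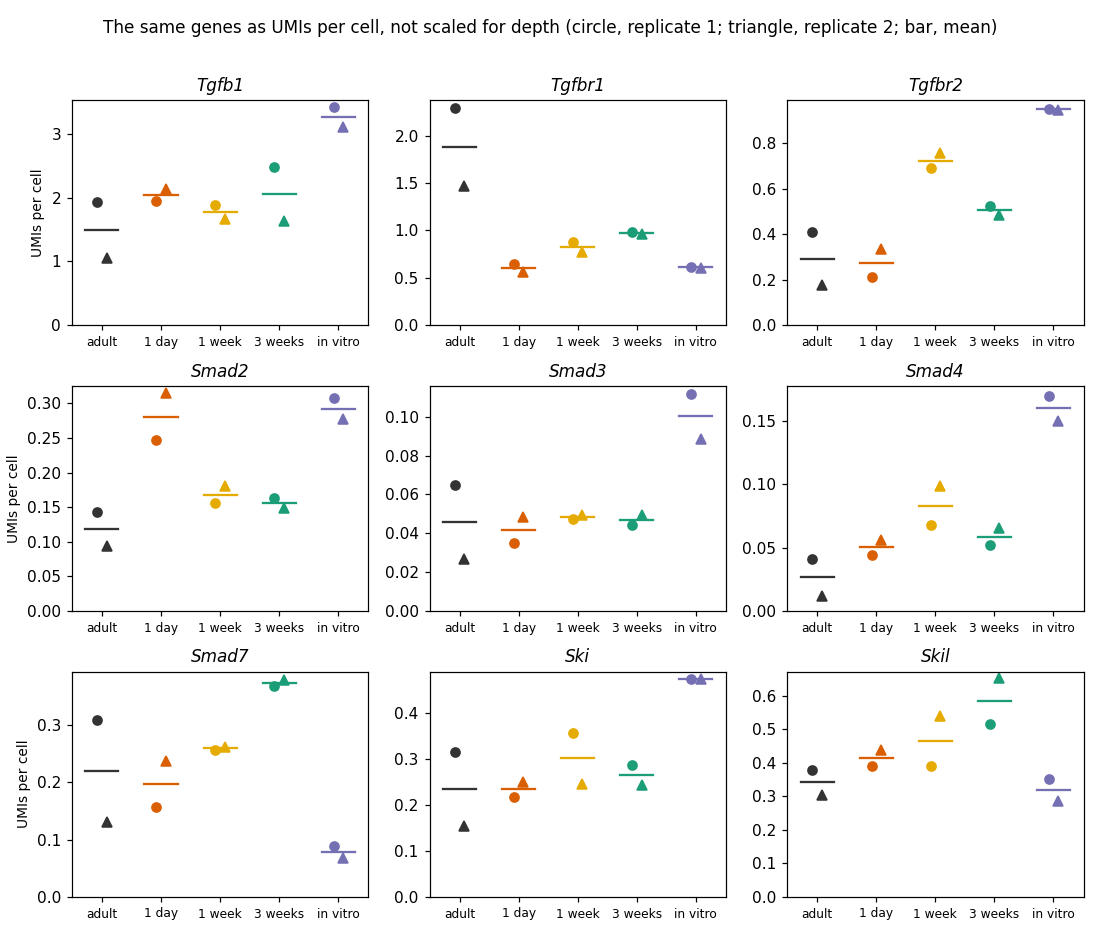
UMIs of each gene per cell, not scaled for depth, in each library of the 5 groups, with circles for replicate 1, triangles for replicate 2 and bars for the mean. *Tgfbr1* is above 1.4 UMIs per cell in both adult libraries and below 1 in all culture libraries, whereas *Tgfb1* is highest *in vitro* (3.41 and 3.11).

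To ask how many cells had each transcript, every cell was thinned to 1800 UMIs, which left 16910 cells and removed those with fewer UMIs (413 and 1618 adult, 26 and 0 slice 1 day, 9 and 9 slice 1 week, 23 and 51 slice 3 weeks, and 0 *in vitro*). A UMI of *Tgfbr1* was found in 70.3% (95% exact binomial interval 68.8 to 71.9) and 71.1% (69.0 to 73.1) of adult cells, and in 8.44% (7.36 to 9.62) and 8.09% (7.09 to 9.19) of *in vitro* cells. In slices the share was 13.4% and 9.27% at 1 day, 18.0% and 13.5% after the first week, and 23.6% and 24.6% at 3 weeks. Thus the order of the groups was the same as for CPM, and without thinning the mean shares were 79.3% in adult, 35.8%, 41.4% and 53.4% in slices and 42.3% *in vitro*. These intervals cover counting error only. At 1800 UMIs a cell holds few UMIs of a gene, so the share of cells follows the mean level of the gene. The shares therefore do not tell fewer expressing cells from less RNA per cell.

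*Smad7* was found at equal depth in 16.2% and 11.3% of adult cells, 5.28% and 4.24% at 1 day, 7.19% and 7.69% at 1 week, 10.5% and 11.1% at 3 weeks, and 1.70% and 0.895% *in vitro*. *Skil* was found in 18.4% and 19.9% of adult cells, 10.2% and 9.07% at 1 day, 8.63% and 9.62% at 1 week, 13.01% and 17.6% at 3 weeks, and 4.14% and 4.14% *in vitro*. Both genes had their lowest share *in vitro*, and the share at 3 weeks was above that at 1 day in both libraries. Cells with over 2% of their UMIs from the neutrophil markers served as a comparison cell type. In slice 1 day replicate 2, *Tgfbr1* was found in 4.55% (1.49 to 10.3) of 110 such cells and in 9.85% (7.98 to 11.98) of the other 904, with medians of 4925 and 8868 UMIs before thinning. For *Smad7* these shares were 2.73% (0.566 to 7.76) and 4.42% (3.18 to 5.98), and for *Skil* 10.9% (5.77 to 18.3) and 8.85% (7.08 to 10.9), so the intervals overlap. In slice 1 day replicate 1, *Skil* was found in 26.4% (15.3 to 40.3) of 53 neutrophil cells and in 8.20% (5.81 to 11.2) of the other 439, and *Tgfbr1* in 5.66% (1.18 to 15.7) and 14.4% (11.2 to 18.0), with medians of 2415 and 7075 UMIs. *Smad7* was found there in 3.77% (0.460 to 12.98) and 5.47% (3.53 to 8.03). The intervals of *Tgfbr1* and *Smad7* overlap in both libraries, whereas those of *Skil* in replicate 1 do not, with the higher share in neutrophil cells. Such intervals cover counting error within 1 library, so these shares do not settle which cells express the 3 genes at 1 day. *Tgfb1* was found in 20.8% (10.8 to 34.1) of the neutrophil cells and 38.0% (33.5 to 42.8) of the others in slice 1 day replicate 1, and in 20% (12.98 to 28.7) and 32.4% (29.4 to 35.6) in replicate 2, where the intervals do not overlap. In slice 1 week replicate 1, with 24 neutrophil cells and 115 others (medians of 4490.5 and 7480 UMIs), *Tgfb1* was found in 8.33% (1.03 to 27.0) and 40% (31.0 to 49.6), again without overlap. There the shares were 4.17% (0.105 to 21.1) and 20.9% (13.9 to 29.4) for *Tgfbr1*, 8.33% and 6.96% for *Smad7*, and 8.33% and 8.70% for *Skil*, with intervals that overlap for each. Leaving out the neutrophil cells changed no call of the 9 genes, and leaving out monocyte cells as well removed 1 (*Tgfb1* at 3 weeks, -0.57). This step left out no adult or 3-week cells, so that loss does not come from monocytes in these groups.

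**Figure D4:**
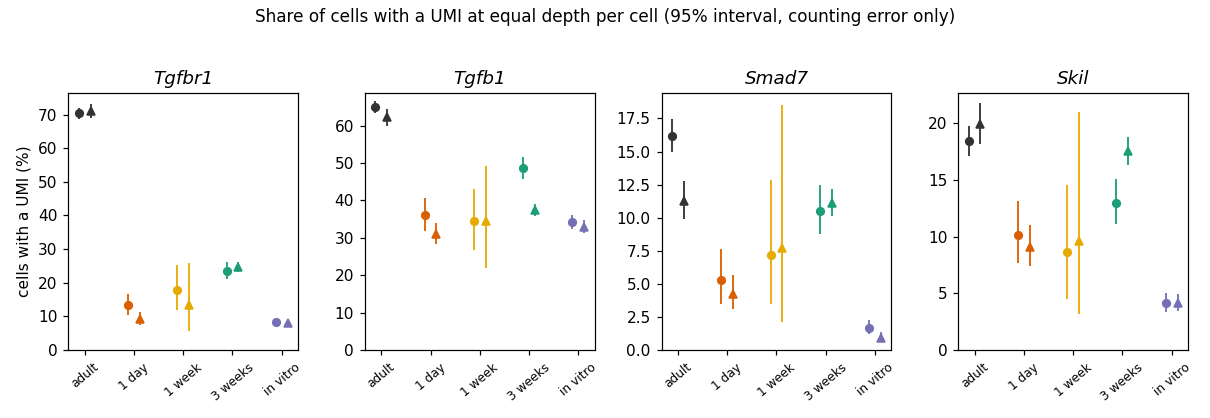
Percent of cells with at least 1 UMI of *Tgfbr1*, *Tgfb1*, *Smad7* or *Skil* after thinning every cell to 1800 UMIs, by library (circles, replicate 1, and triangles, replicate 2) with 95% exact binomial intervals. *Tgfbr1* lies at 70.3% and 71.1% in adult and at or below 24.6% in all culture libraries.

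Within the cultures, cells with a UMI of the identity genes *P2ry12* or *Tmem119* had more *Tgfbr1* than cells without, at equal depth, in 8 of 8 libraries. The level was 176 and 210 CPM in identity-positive cells at 3 weeks beside 117 and 114 in the others, and 69.3 and 62.3 beside 45.2 and 45.1 *in vitro*. The log2 difference ran from 0.06 to 1.25 with a median of 0.58, and it was smallest in the slice 1 week libraries, which had 11 and 14, and 4 and 3 UMIs in the 2 parts. With *P2ry12* alone the direction held in 7 of 8 libraries. In the slice 1 day libraries and slice 1 week replicate 1 the cells compared include the 53, 110 and 24 neutrophil cells above, most of them without an identity UMI, in which *Tgfbr1* was at 41.9, 25.3 and 23.1 CPM beside 101, 62.1 and 116 in the other cells. Without them *Tgfbr1* was higher in identity-positive cells in 7 of 8 libraries (-0.11 to 1.17, median 0.57), and in 5 of 8 with *P2ry12* alone. The pattern was not particular to *Tgfbr1*, since *Tgfb1* was higher in 7 of 8 libraries and *Tgfbr2* in 6 of 8, and without thinning each of these 3 genes was higher in 7 of 7. *Smad4*, *Smad7*, *Ski* and *Skil* were higher in 5 of 8, *Smad3* in 4 and *Smad2* in 2. Without the neutrophil cells *Ski* was higher in 7 of 8, as *Tgfbr1* was, and in 7 of 8 with *P2ry12* alone. *Tgfb1* was then higher in 7, *Tgfbr2* in 6, *Smad4* and *Smad7* in 5, *Smad3* and *Skil* in 4 and *Smad2* in 3. Adult libraries had too few cells without an identity UMI for this comparison, and *Tgfbr1* was higher in cells with proliferation markers in 2 of 6 libraries. These are descriptions of cells that share a library, not tests.

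The wider pathway was read from lists of genes written from general knowledge. The shares of all genes called, against which each count is read, were 28.5% lower and 22.4% higher *in vitro*. For slices they were 25.3% lower with 24.9% higher (1 day), 13.6% with 15.0% (1 week) and 17.5% with 17.9% (3 weeks). These shares belong to scaled libraries. On UMIs per cell they were 4.70% lower with 80.3% higher *in vitro*, 3.49% with 67.9% (1 day), 1.35% with 44.0% (1 week) and 2.76% with 55.9% (3 weeks). Lists whose counts are near the shares of their own scale are not set apart by them. Of the other receptors and co-receptors, 5 of 9 tested fell *in vitro* and 1 rose. In slices 5 fell and 1 rose at 1 day, 2 fell and 1 rose at 1 week, and 3 fell and 1 rose at 3 weeks. Endoglin (*Eng*), a co-receptor, was at 85.6 and 81.1 CPM in adult, 17.2 and 20.1 at 3 weeks and 3.15 and 4.04 *in vitro*, a log2 fold change of -2.15 and -4.53. *Bambi*, a pseudoreceptor that blocks signalling, was higher than adult in all 4 comparisons, by 1.43 at 1 day, 3.17 at 1 week, 2.49 at 3 weeks and 2.98 *in vitro*. *Acvr2b*, an activin receptor, was lower in all 4 comparisons (-1.55 to -2.55), and *Acvr1* in 3 of them (-1.32 to -2.25), of which the one *in vitro* turned on UMIs per cell. *In vitro* that scale gave 4 of these 9 receptors above adult and 1 below, beside 80.3% and 4.70% of all genes.

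Among 8 tested genes that make, hold or release the ligand, 3 rose and 1 fell *in vitro*, 2 rose and 2 fell at 1 day, 1 rose and 1 fell at 1 week, and 3 rose and 1 fell at 3 weeks, and at 1 day these counts equal the share of all genes (25.3% lower and 24.9% higher). Fitted as UMIs per cell, 7 of the 8 were above adult *in vitro*, 5 at 1 day, 4 at 1 week and 6 at 3 weeks, and 0 below, where 80.3%, 67.9%, 44.0% and 55.9% of all genes were above. *Itgb5*, a subunit of an integrin that can activate latent TGF-beta, was lower on scaled libraries in all 4 comparisons with adult (-2.32 at 1 day to -0.96 at 1 week), and on UMIs per cell its direction turned *in vitro*, at 1 week and at 3 weeks. *Ltbp3*, a binding protein of latent TGF-beta, was at 0.513 and 0.129 CPM in adult and at 9.25 and 9.54 *in vitro* (log2 fold change 4.65). *Thbs1*, an activator of latent TGF-beta, was higher at 1 day (4.16) and *in vitro* (3.49). At 1 day it was at 117 and 181 CPM in the neutrophil cells and at 7.33 and 13.97 in cells past neither the neutrophil nor the monocyte limit, beside 1.61 and 0.735 in adult, and without neutrophil and monocyte cells its log2 fold change was 3.30. Cells of slice 1 day replicate 2 not over the neutrophil limit also held UMIs of the neutrophil markers (median 0.436%). The part of such RNA in the *Thbs1* values was not tested.

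Of 17 tested regulators of receptors and SMADs, 5 fell and 4 rose *in vitro* and 4 fell and 2 rose at 3 weeks, which is near the share of all genes *in vitro* (28.5% lower and 22.4% higher). Fitted as UMIs per cell, 14 of the 17 were above adult and 1 below *in vitro*, and 10 and 1 at 3 weeks, which is near the shares of all genes on that scale (80.3% above *in vitro* and 55.9% at 3 weeks). *Dab2*, an endocytic adaptor, was at 8.86 and 10.0 CPM in adult and at 785 and 735 *in vitro* (log2 fold change 6.33), and was higher in all 4 comparisons. *Pmepa1* and *Ldlrad4*, which restrain SMAD activation and are themselves induced by TGF-beta, were lower in all 4 (-0.90 to -2.77 and -1.37 to -2.81), where *Pmepa1* turned on UMIs per cell *in vitro* and at 1 week. *Tgif2*, a SMAD corepressor, was lower in all 4 (-2.46 to -3.24 without 1 week, where it was at 0.988 and 0 CPM). Of the other SMADs, *Smad1* of the bone morphogenetic protein branch was lower in all 4 (-1.20 to -1.59) and *Smad5* at 1 day and *in vitro*, and both turned on UMIs per cell at 1 day and *in vitro*. The coactivator *Ep300* was lower at 1 day and *in vitro* (-1.07 and -0.86) and *Hdac1* *in vitro* and at 3 weeks (-0.62 and -0.73), and these directions turned on UMIs per cell. In the TAK1 branch, 1 of 4 genes was called against adult (*Tab1*, *in vitro*, -0.79, turned on UMIs per cell). On that scale 3 of 3 other SMADs, 5 of 5 nuclear partners and 4 of 4 TAK1 genes were called as above adult *in vitro*, as were 80.3% of all genes.

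Genes known as general targets of TGF-beta or of related factors were mostly higher in the cultures. Of 13 tested, 9 rose and 3 fell *in vitro*, 8 rose and 0 fell at 1 day, 8 rose and 2 fell at 1 week, and 9 rose and 0 fell at 3 weeks. Fitted as UMIs per cell, 10 of the 13 were above adult *in vitro*, 12 at 1 day, 10 at 1 week and 11 at 3 weeks, and 0 below. The count *in vitro* is near the share of all genes above adult on that scale (80.3%, with 67.9%, 44.0% and 55.9% in slices by time). *Tgfbi*, an extracellular matrix protein, was at 28.9 and 27.8 CPM in adult, 630 and 589 at 1 day, 62.1 and 42.6 at 3 weeks, and 75.7 and 82.5 *in vitro*. Monocytes also express *Tgfbi*. In the slice 1 day libraries it was at 1206 and 776 CPM in the 33 and 75 cells past the monocyte limit but not over the neutrophil limit. It was at 472 and 199 in neutrophil cells and 630 and 621 in the other 417 and 829 cells. Without neutrophil and monocyte cells its log2 fold change at 1 day was 4.47 ± 0.22 (edgeR adjusted p = 2.28e-07), and 8 of the 13 targets rose and 0 fell at 1 day. *Bhlhe40*, *Gadd45b* and *Id1*, which are induced by many other stimuli as well, were higher in all 4 comparisons (4.04 to 6.35, 2.51 to 5.91 and 3.47 to 5.61).

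Genes of adult microglia that depend on TGF-beta were mostly lower in the cultures. Of 16 tested, 15 fell and 1 rose *in vitro*, 15 fell and 0 rose at 1 day, 15 fell and 1 rose at 1 week, and 13 fell and 1 rose at 3 weeks, and from 1 day to 3 weeks 15 rose and 0 fell. Several of these genes were named by the study from these same libraries, so the count is not independent evidence of its direction. The transcription factor *Sall1* was at 128 and 108 CPM in adult, 15.2 and 12.1 at 1 day, 49.2 and 59.9 at 3 weeks, and 0.321 and 0.084 *in vitro*. *P2ry12*, a purinergic receptor, was lower in all 4 (-2.95 to -7.08), as were *Siglech*, a lectin (-2.67 to -12.18), and *Slc2a5*, a fructose transporter (-3.58 to -10.95). On UMIs per cell, 10 of the 16 were still called as lower and 2 as higher *in vitro*, and 6 and 1 at 3 weeks, beside 4.70% lower and 80.3% higher, and 2.76% and 55.9%, of all genes. From 1 day to 3 weeks, the 15 that rose on scaled libraries stand beside 13.9% of all genes called as higher and 12.8% as lower. On UMIs per cell 10 rose and 0 fell in that comparison, beside 2.70% and 17.0% of all genes.

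**Figure D5:**
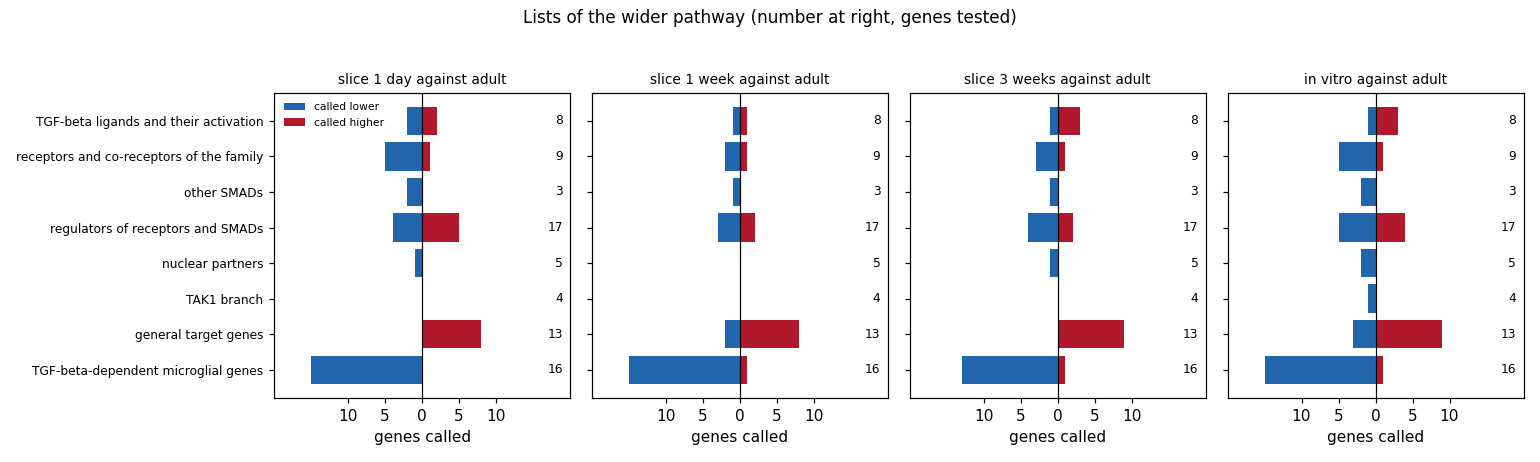
Number of genes called as lower (left, blue) and higher (right, red) against adult in each list of the wider pathway, for the 4 comparisons, with the genes tested at the right of each row. In the list of TGF-beta-dependent microglial genes 15 of 16 fell *in vitro*, and of the general targets 9 of 13 rose.

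The genes whose pattern over the 10 libraries was most like that of each member called in any comparison (all but *Smad4*) were sought among the 3911 other genes tested with a mean log2 CPM of 5 or more. The measure was the root mean square difference in log2 CPM after centring. For *Tgfbr1* these were *B4galt4*, *Lpcat2* and *Abi3* (differences 0.19, 0.21 and 0.24, where *Tgfbr1* itself deviated from its mean by 1.30). *Lpcat2* was at 1698 CPM on average in adult, 203 at 1 day, 329 at 1 week, 486 at 3 weeks and 167 *in vitro*. For *Smad7* they were *Plxdc2*, *Xlr* and *Il6st* (0.23, 0.34 and 0.34), and for *Skil* they were *Mtdh*, *Naa35* and *Pde3b* (0.18, 0.21 and 0.23). *Plxdc2* was at 516 in adult, 559 at 3 weeks and 52.6 *in vitro*. For *Tgfb1* they were *Cnpy3*, *Abhd16a* and *Tmbim6*, for *Tgfbr2* they were *Hsd17b11*, *Fbxw4* and *Bptf*, for *Smad2* they were *Camk2d*, *Capza2* and *Tcf3*, for *Smad3* they were *Prex1*, *Klf3* and *P2rx7*, and for *Ski* they were *Prex1*, *Tm2d3* and *Fam53b*.

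With the study identifier as a covariate, all calls against adult were kept except that of *Smad7* at 1 week, and *Ski* was lost from 1 day to 3 weeks. Border macrophage and proliferation markers differed between adult and culture libraries as given above, and their part in these results was not tested, other than that leaving out proliferating cells removed 3 calls (*Smad7* and *Skil* at 1 week, and *Ski* from 1 day to 3 weeks).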

How the data were processed

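FACS-sorted microglia were measured in 10 single cell libraries (10x Genomics 3' kit), 2 per group. The authors aligned and counted the reads, with Cell Ranger 1.3.0 and mm10 named in the submitters' processing notes, and deposited them as whole UMI counts, 1 table per library. The tables still held cells past the study's own limits, which were applied here (5% mitochondrial UMIs, 400 genes, 30000 UMIs). The study also removed outlier cells seen by t-SNE, which was not repeated, and it states fewer cells for both 1-week slice samples than the 148 and 61 kept here, so these cells are not the study's own set. The summed counts of each library entered edgeR 4.0.16 (TMM factors, filterByExpr with 10 as minimum count, glmQLFit, glmQLFTest) in a single model of 5 groups that share the estimate of the spread. Benjamini-Hochberg adjustment ran over 12157 genes. DESeq2 1.42.0 was an alternative, and the fit was tested on simulated data. Total UMIs per library ran from 385373 to 39689540, which limits the slice 1 week values most. The replicates differed beyond sampling noise in every group (chi-square per degree of freedom 4.89 to 47.3). Members and lists were chosen with earlier results of these data known. All 9 members are named, at most 4 genes a list (called in most comparisons, then largest change against adult), and the 3 genes most like each called member by centred log2 CPM (prior count 1), with 5 as the lowest average. Alternatives covered scaling, filters, covariates, thinning, cells of other types and leaving out each library.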

Additional observations from a re-analysis of the deposited data

Results flagged for a closer look

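The difference from adult was not the same in all cultures for some of the genes, by edgeR's test of the difference between the culture groups themselves. *In vitro* against slice 3 weeks, this held for *Tgfbr1* (log2 fold change -1.76), *Smad7* (-3.34) and *Skil* (-1.98), of which *Smad7* and *Skil* were not called at 3 weeks against adult. Between slice 3 weeks and slice 1 day it held for *Tgfbr1* (1.11), *Tgfbr2* (1.35), *Smad7* (1.38), *Ski* (0.62) and *Skil* (0.96). With 2 libraries a group, single libraries were not examined for outliers.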

How the results depend on the processing

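Outside of the fit of UMIs per cell, no call against adult or between cultures changed direction. On UMIs per cell the log2 fold change *in vitro* against adult was 1.12 for *Tgfb1*, 1.70 for *Tgfbr2*, 1.30 for *Smad2*, 1.13 for *Smad3* and 1.01 for *Ski*. At 1 day it was 0.45 for *Tgfb1*, 1.25 for *Smad2* and 0.28 for *Skil*. At 1 week it was 0.25 for *Tgfb1*, 0.48 for *Smad2*, 0.23 for *Smad7*, 0.40 for *Ski* and 0.42 for *Skil*. At 3 weeks it was 0.46 for *Tgfb1*, 0.79 for *Tgfbr2*, 0.40 for *Smad2*, 0.040 for *Smad3*, 0.17 for *Ski* and 0.78 for *Skil*. *In vitro* against slice 3 weeks it was 0.91 for *Tgfbr2*, 0.91 for *Smad2*, 1.09 for *Smad3* and 0.84 for *Ski*. The genes called on that scale then numbered 2 at 1 day (1 of them higher), 3 at 1 week (2 higher), 4 at 3 weeks (3 higher), 7 *in vitro* against slice 3 weeks (5 higher) and 0 for slice 3 weeks against slice 1 day (5 on scaled libraries), by construction of the scale, which keeps the depth of the cells.

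With cells thinned to 1800 UMIs, 3 genes were called at 1 week and 3 at 3 weeks. Of all 10717 genes tested with thinned cells, 994 were called as higher and 806 as lower at 1 week. At 3 weeks 1836 were called as higher and 1522 as lower. Each of these is a smaller share of all genes than without thinning (15.0% higher and 13.6% lower at 1 week, 17.9% and 17.5% at 3 weeks). Without cells with markers of another cell type, 1 was called at 1 week and 0 for slice 3 weeks against slice 1 day, where slice 1 day replicate 2 and slice 1 week replicate 1 lost all their cells. Leaving out 1 library at a time gave 6 to 8 genes *in vitro*, 7 to 8 at 1 day, 3 to 6 at 1 week (3 without slice 1 week replicate 1), 3 to 5 at 3 weeks (3 without adult replicate 1), 3 *in vitro* against slice 3 weeks and 3 to 5 for slice 3 weeks against slice 1 day (3 without slice 1 day replicate 2). Of 500 values called in neither fit, 30 changed sign. The cause of these losses was not tested. The removal of neutrophil cells, alone or with monocyte cells, was chosen after seeing the data.

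Without thinning, the share of cells with a UMI rose with depth, to 79.3% in adult, 35.8% at 1 day, 41.4% at 1 week, 53.4% at 3 weeks and 42.3% *in vitro* for *Tgfbr1*, to 18.7%, 14.3%, 20.6%, 27.0% and 7.09% for *Smad7*, and to 27.3%, 29.5%, 29.9%, 38.7% and 24.0% for *Skil*. Same-numbered libraries did not deviate together (correlations of -0.100 to 0.0871 over 10 pairs of groups), so the numbers do not pair the samples, and the replicate block gave 7, 7, 6, 5, 3 and 5 genes called in the 6 comparisons, as without it.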
